A study of Mus musculus with 6 samples.

Results

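The Krüppel-like factors (KLF) are zinc finger transcription factors, and 10 of them were followed here in mouse leukemia cells driven by MLL-AF9, a fusion gene of acute myeloid leukemia. The 10 genes were Klf2, Klf3, Klf4, Klf6, Klf7, Klf9, Klf10, Klf11, Klf13 and Klf16. They were taken by name from the 26082 gene names of the expression table, with earlier results of these data known. The other KLF genes, most of them under 1 FPKM, are described below. All 10 had a mean of at least 1 FPKM (mapped fragments divided by transcript length and by the size of the library) over the 6 samples and were among the 11130 genes tested. The leukemia was made in c-Kit+ bone marrow progenitors of C57BL/6J mice by retroviral transduction of MLL-AF9, with GFP on the same vector, and grew in recipient mice. For this model the paper describes repeated passage of leukemia cells from the spleens of moribund mice, before injection into recipients that were not irradiated. The DS-5272 group (n = 3) came from leukemic mice given 80 mg/kg of the oral compound DS-5272, an inhibitor of the interaction of p53 with its ubiquitin ligase MDM2, and the vehicle group (n = 3) from leukemic mice given the carrier alone. Leukemia cells were sorted from the bone marrow 24 h after the dose, and RNA-Seq was done on total RNA. Both groups therefore carried the same transgene and differed in treatment. The sample labels give no age, and they do not say whether each sample came from a separate mouse or primary transduction, so the p-values measure the spread between these samples.

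KLF proteins share zinc fingers at the C-terminal end that bind GC boxes and CACCC boxes in DNA, and they differ in the N-terminal part that recruits cofactors. KLF2, KLF4, KLF6 and KLF7 contain activation domains and can bind histone acetyltransferases. KLF3 binds the corepressor CtBP, and KLF9, KLF10, KLF11, KLF13 and KLF16 bind the corepressor SIN3A. In blood cells KLF2 is known for T cell quiescence and for restraining the activation of monocytes, and KLF4 for the formation of monocytes.

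The promoter sequences of Klf2, Klf4 and Klf6 are shown because these 3 genes moved together across the samples. They are the 250 bases before the gene start in RefSeq (GRCm38.p6), written 5′ to 3′ on the strand of the gene, and lie at chr8:72318812-72319061 (plus strand), chr4:55532476-55532725 (minus strand) and chr13:5861239-5861488 (plus strand). Capitals mark the GC box GGGCGG on either strand and, in Klf2, the MEF2 site CTAAATTTAG, the kind of element bound by MEF2 factors downstream of the kinase ERK5.
Klf2: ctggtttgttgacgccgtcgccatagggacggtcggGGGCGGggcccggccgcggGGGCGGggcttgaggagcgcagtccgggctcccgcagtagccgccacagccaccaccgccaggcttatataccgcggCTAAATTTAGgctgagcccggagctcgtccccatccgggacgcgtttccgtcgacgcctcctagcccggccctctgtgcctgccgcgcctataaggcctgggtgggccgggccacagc
Klf4: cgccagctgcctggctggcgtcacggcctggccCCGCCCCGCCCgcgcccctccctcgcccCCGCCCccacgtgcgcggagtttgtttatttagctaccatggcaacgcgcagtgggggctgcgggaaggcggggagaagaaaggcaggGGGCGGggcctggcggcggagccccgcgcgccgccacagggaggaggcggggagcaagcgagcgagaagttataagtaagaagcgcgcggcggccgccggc
Klf6: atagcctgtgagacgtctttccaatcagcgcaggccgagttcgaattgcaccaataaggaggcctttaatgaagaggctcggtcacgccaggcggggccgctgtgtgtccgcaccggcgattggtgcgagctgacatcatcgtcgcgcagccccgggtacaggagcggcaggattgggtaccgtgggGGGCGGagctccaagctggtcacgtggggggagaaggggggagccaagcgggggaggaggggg
The motifs were counted in windows of 300 bases, 250 before to 50 after the start, which were given for 8 of the 10 genes (all but Klf10 and Klf16). Letters were searched on both strands and overlapping matches were kept. A GC box was present in 7 of the 8 windows, all but that of Klf9, against 35.6% of the 32817 RefSeq promoters of the same length. Klf2 had 2 GC boxes, Klf4 had 4, the first of which overlap, and Klf6 had 1. CACCC was found in 5 of 8 (57.5% of all promoters) and the core TGACG of the cyclic AMP response element in 5 of 8 (20.8%). The MEF2 site was found in 1 of 8, in Klf2 at 118 to 109 bases before the start, and in 3.19% of all promoters. The AP-1 site TGANTCA was found in 1 of 8, in Klf9, and in 7.81% of all promoters. None of the 8 windows held TATAAA (13.6%), TGACGTCA (1.79%), a CArG box of the serum response element (1.63%), an NF-kB site (4.5%) or a p53 half-site (8.36%). A match or its absence describes these letters only.

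As a view of the samples, between 34500000 and 42800000 mapped fragments were estimated per vehicle sample, and between 23000000 and 31900000 per DS-5272 sample, from the steps of the lowest FPKM values. The summed FPKM of 6 markers of the myeloid leukemia with an entry of their own was 2113 to 2837 in vehicle and 1109 to 1630 in DS-5272 samples. In vehicle most of this sum was Elane, with means of 1835 FPKM in vehicle and 325 FPKM in DS-5272. The means of Kit and Mpo were also lower in DS-5272. Those of Meis1, Ptprc and Itgam were higher, with Itgam at 168 FPKM in vehicle and 754 FPKM in DS-5272. The sum is thus no measure of the number of leukemia cells. Summed B cell markers were at 4.32 to 5.02 in vehicle and 3.39 to 4.34 in DS-5272, nearly all of it Cd79b (means of 4.45 and 3.53 FPKM). The sums of the other cell types were low but higher in every DS-5272 than in every vehicle sample, at 0.280 to 0.396 against 0.600 to 3.47 for T cells, 0.534 to 1.35 against 2.04 to 3.37 for NK cells, 1.42 to 2.91 against 3.75 to 7.87 for endothelium and stroma and 1.68 to 2.08 against 4.32 to 6.95 for megakaryocytes. No marker with an entry was at 0 in all of them. Erythroid markers summed to 2.11 to 4.49 in vehicle and, by sample number, to 146, 27.3 and 12.5 with DS-5272, and macrophage markers to 56.1 to 110 in vehicle and 388, 121 and 142 in DS-5272. Their part in the differences between the groups was not tested, and in such bulk samples fewer cells of a type and less RNA per cell cannot be told apart. The samples numbered 1 stood apart from numbers 2 and 3 of their own group for many genes, and the results that rest on them are given with and without them.

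Klf3, Klf7 and Klf10 rose with DS-5272 and Klf16 fell, while Klf2, Klf4, Klf6, Klf9, Klf11 and Klf13 did not pass the test (limma on log2(FPKM + 1), adjusted p under 0.05). Thus 3 of 10 genes rose and 1 of 10 fell, beside 24.2% and 22% of all genes tested (4 of 10 in either direction, beside 46.3%). With the FPKM values rescaled to a common total, the 3 and the 1 were again called, and the split over all genes moved from 2697 higher and 2451 lower to 1717 higher and 3536 lower. The median log2 fold change of the 10 genes was 0.91 and that of all genes tested 0.04, and 9 of 10 estimates were above 0, beside 52.8% of all genes. With the replicate number as a block, which compares samples of the same number, Klf2, Klf4, Klf6 and Klf11 were also called higher. This gave 7 of 10 higher and 1 lower, beside 30.3% and 24.9% of all genes (8 of 10 in either direction, beside 55.1%). The pairing by number was read from these data and not from the labels, and only number 1 was set apart. All calls with the block depend on that reading. With both samples numbered 1 left out, Klf2, Klf3, Klf4, Klf6 and Klf10 rose (5 of 10, beside 22.4% of all genes) and 0 fell (14.8%). This alternative, here and below, was chosen after seeing the data and keeps only numbers 2 and 3 of each group. Klf2, Klf4 and Klf6 were lowest in the samples left out, so their calls under it are no independent support for a rise. All 3 same-numbered pairs were higher with DS-5272 for 7 of 10 genes, beside 41.8% of all genes, and lower for 1 of 10, Klf16, beside 37.3%.

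**Figure D1:**
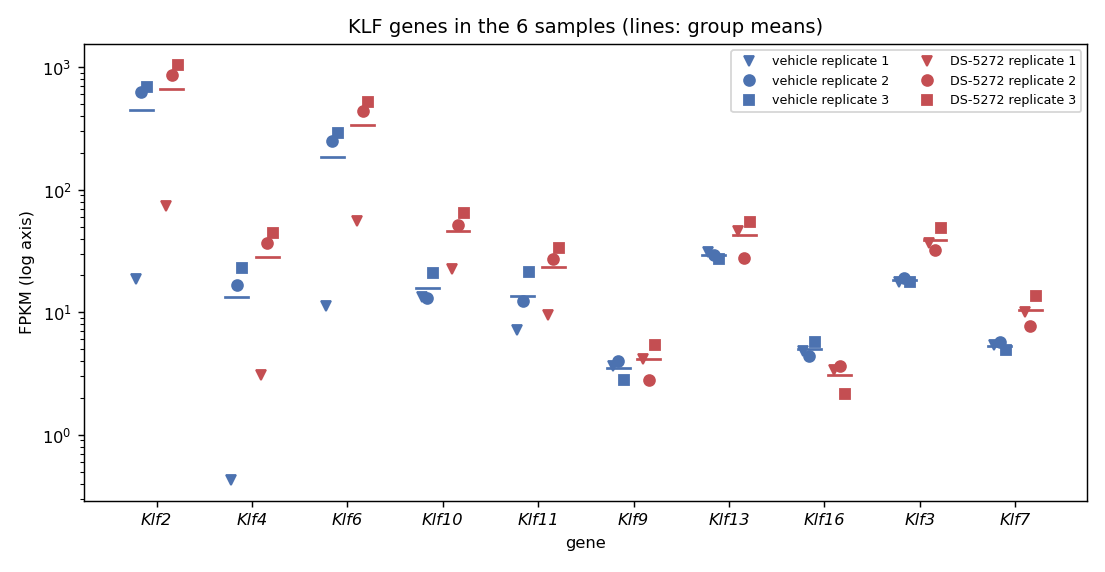
FPKM of the 10 KLF genes in each sample on a log axis, with vehicle (blue) and DS-5272 (red) samples side by side, triangles, circles and squares for replicates 1, 2 and 3 and short lines at the group means. In Klf2, Klf4, Klf6 and Klf11 replicate 1 is the lowest point of each group, and in Klf3, Klf7, Klf10 and Klf16 the groups do not overlap.

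The activators Klf2, Klf4 and Klf6 had the widest range. Klf2 (ENSMUSG00000055148, chr8:72319033-72321656, plus strand, GRCm38) measured 18.6, 629.5 and 690 FPKM in the vehicle samples, in the order of their numbers, and 73.1, 863 and 1048 FPKM in the DS-5272 samples. Replicate 1 was the lowest sample of each group, and the groups overlapped. The means were 446 ± 371 FPKM in vehicle and 662 ± 518 FPKM in DS-5272 (SD, n = 3), and the log2 fold change was 0.99 ± 1.61 (SE), with a 95% interval from -2.85 to 4.83 and an adjusted p of 0.633 (limma). Within numbers, Klf2 was 3.92, 1.37 and 1.52 times as high with DS-5272, and with the replicate block its SE was 0.28 and its adjusted p 0.029 (limma). Without vehicle replicate 1 alone the estimate turned to -0.70, and without both samples numbered 1 it was 0.53 with an adjusted p of 0.040 (limma).

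Klf4 (chr4:55527143-55532466, minus strand) was at 0.428, 16.6 and 23.2 FPKM in vehicle and 3.10, 36.7 and 44.3 FPKM in DS-5272, in the order of the replicates. It was nearly silent in vehicle replicate 1, where its value stands for about 55.4 fragments over its longest transcript, against about 1740 in vehicle replicate 2. The means were 13.4 ± 11.7 and 28.0 ± 21.9 FPKM (SD, n = 3), and the log2 fold change was 1.17 ± 1.32 (SE; 95% interval -1.96 to 4.31), with an adjusted p of 0.484 without and 0.0025 with the replicate block (limma). The ratios within numbers were 7.25, 2.21 and 1.91. Without vehicle replicate 1 the estimate was -0.11, and without both samples numbered 1 it was 1.0 (adjusted p = 0.028, limma).

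Klf6 (chr13:5861482-5870394, plus strand), an activator that is quickly induced by growth factors and inflammatory signals, was at 11.2, 249 and 291 FPKM in vehicle and at 55.4, 441 and 521 FPKM in DS-5272. As for Klf2, replicate 1 of DS-5272 lay above that of vehicle and below replicates 2 and 3 of vehicle. The means were 184 ± 151 and 339 ± 249 FPKM (SD, n = 3), and the log2 fold change was 1.29 ± 1.40 (SE; 95% interval -2.04 to 4.62) with an adjusted p of 0.470 without and 0.012 with the block (limma). The ratios within numbers were 4.95, 1.77 and 1.79. Without vehicle replicate 1 the estimate was -0.20, and without both samples numbered 1 it was 0.83 (adjusted p = 0.021, limma).

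Klf7 (chr1:64029447-64122282, minus strand), known for its role in neurons and in fat cells, was lower than these 3 genes in replicates 2 and 3 and did not share their pattern. It was at 5.38, 5.69 and 4.90 FPKM in vehicle and at 10.1, 7.72 and 13.6 FPKM in DS-5272, so that the groups did not overlap. The means of 5.33 ± 0.40 and 10.5 ± 2.94 FPKM (SD, n = 3) gave a log2 fold change of 0.83 ± 0.19 (SE; 95% interval 0.37 to 1.29; adjusted p = 0.014, limma). The call was lost without vehicle replicate 3 (0.78, adjusted p = 0.051, limma) and without both samples numbered 1 (0.84, adjusted p = 0.069, limma). Exons of 2 noncoding genes on the opposite strand, Gm13748 and Gm26649, overlap Klf7. The libraries kept strand, but whether the FPKM calculation used it is not given in the sources used here.

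Klf3 (chr5:64803388-64832901, plus strand), the CtBP-binding repressor, rose with the smallest error of the called genes. It was at 17.7, 19.2 and 17.8 FPKM in vehicle and at 36.5, 32.4 and 48.6 FPKM in DS-5272. The groups lay apart, and all 3 samples of vehicle were close together, replicate 1 included. The means of 18.3 ± 0.83 and 39.2 ± 8.43 FPKM (SD, n = 3) gave a log2 fold change of 1.04 ± 0.16 (SE; 95% interval 0.67 to 1.41; adjusted p = 0.0041, limma), with ratios within numbers of 2.06, 1.69 and 2.73. Klf3 passed the test under every alternative run, with estimates from 0.80 to 1.16 and adjusted p from 0.0030 to 0.029 (limma). An exon of Gm20033, a noncoding gene on the opposite strand, overlaps Klf3.

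Among the SIN3A-binding factors, Klf10 and Klf11 are the genes known to respond early to TGF-beta. Klf10 (chr15:38291463-38300706, minus strand) was at 13.3, 13.1 and 21.1 FPKM in vehicle and at 22.5, 51.5 and 65.0 FPKM in DS-5272, as the sum of 2 lines of the table of which the smaller held at most 1.15 FPKM. The groups did not overlap, although DS-5272 replicate 1 was close to the highest vehicle sample. The means of 15.8 ± 4.54 and 46.3 ± 21.7 FPKM (SD, n = 3) gave a log2 fold change of 1.40 ± 0.39 (SE; 95% interval 0.46 to 2.33; adjusted p = 0.026, limma). The call was lost without vehicle replicate 1 or 2 or DS-5272 replicate 2 or 3 (estimates of 1.3, 1.28, 1.26 and 1.09, adjusted p from 0.069 to 0.087, limma) and with no filter on low values (adjusted p = 0.055, limma), and held without both samples numbered 1 (1.74).

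Klf11 (chr12:24651274-24662789, plus strand) was at 7.14, 12.4 and 21.2 FPKM in vehicle and at 9.53, 27.3 and 33.3 FPKM in DS-5272. Replicate 1 was again the lowest of each group, and the groups overlapped. The means were 13.6 ± 7.09 and 23.4 ± 12.3 FPKM (SD, n = 3), and the log2 fold change was 0.69 ± 0.52 (SE; 95% interval -0.56 to 1.94) with an adjusted p of 0.308 without and 0.013 with the block (limma). The estimate was 0.33 without vehicle replicate 1, 0.36 without DS-5272 replicate 3, 1.05 without vehicle replicate 3, 1.21 without DS-5272 replicate 1, and 0.85 (adjusted p = 0.067, limma) without both samples numbered 1, none of which passed the test.

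Klf9 (chr19:23141226-23168134, plus strand), a target of the glucocorticoid receptor, was at 3.67, 4.0 and 2.82 FPKM in vehicle and at 4.17, 2.81 and 5.44 FPKM in DS-5272. The groups overlapped, with a log2 fold change of 0.17 ± 0.22 (SE; 95% interval -0.35 to 0.68; adjusted p = 0.542, limma) that turned to -0.050 when the values were rescaled to a common total. Klf13 (chr7:63886351-63938915, minus strand), which regulates the chemokine gene Ccl5 in T cells, was at 30.9, 29.5 and 27.4 FPKM in vehicle and at 46.3, 27.7 and 54.8 FPKM in DS-5272. Replicate 2 of DS-5272 lay among the vehicle samples and the other two above them, and the log2 fold change was 0.48 ± 0.24 (SE; 95% interval -0.09 to 1.05; adjusted p = 0.137, limma). Without DS-5272 replicate 2, Klf13 rose by 0.76 (adjusted p = 0.0070, limma).

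Klf16 (chr10:80567124-80577321, minus strand), a repressor of metabolic and dopamine receptor genes, was the 1 gene that fell. It was at 4.86, 4.38 and 5.75 FPKM in vehicle and at 3.36, 3.65 and 2.15 FPKM in DS-5272, with no overlap of the groups. The means of 4.99 ± 0.69 and 3.05 ± 0.79 FPKM (SD, n = 3) gave a log2 fold change of -0.58 ± 0.18 (SE; 95% interval -1.01 to -0.15; adjusted p = 0.038, limma). The call was lost without vehicle replicate 1, 2 or 3 or DS-5272 replicate 3 (estimates of -0.59, -0.65, -0.49 and -0.41), without both samples numbered 1 (-0.65) and with no filter on low values (adjusted p = 0.080, limma), always with the same sign. Groups that did not overlap were therefore found for 3 genes higher and 1 lower with DS-5272, beside 32.1% and 29.7% of all genes.

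**Figure D2:**
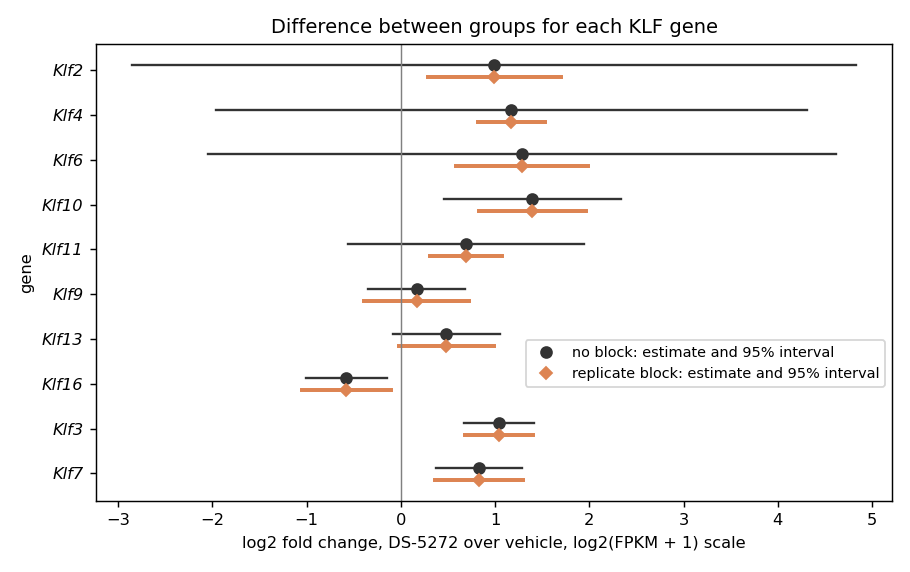
Log2 fold change of each KLF gene, DS-5272 over vehicle, on the log2(FPKM + 1) scale, with its 95% interval from limma without a block (black) and with the replicate number as a block (orange). The black intervals of Klf2, Klf4 and Klf6 span from below -1.9 to above 4.3, and their orange intervals lie above 0.

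The order of the levels differed between the samples numbered 1 and the others. Klf2 was the highest of the 10 genes in all samples but vehicle replicate 1, where Klf13 was the highest. Klf2 and Klf6 together made up 89.3% and 88.8% of the summed FPKM of the 10 genes in vehicle replicates 2 and 3 and 87.3% and 85.5% in DS-5272 replicates 2 and 3. In replicate 1 their share was 26.3% in vehicle and 48.7% in DS-5272. The summed FPKM of the 10 genes was 113, 984 and 1105 in vehicle and 264, 1495 and 1836 in DS-5272. By group means in vehicle the order was Klf2, Klf6, Klf13, Klf3, Klf10, Klf11, Klf4, Klf7, Klf16 and Klf9. The ranges of Klf13 and Klf3 lay apart and those of Klf16 and Klf9 did too, and every other pair of neighbours overlapped between samples. In DS-5272 the order was Klf2, Klf6, Klf10, Klf13, Klf3, Klf4, Klf11, Klf7, Klf9 and Klf16, and the ranges of neighbours overlapped except for Klf7 and Klf9.

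**Figure D3:**
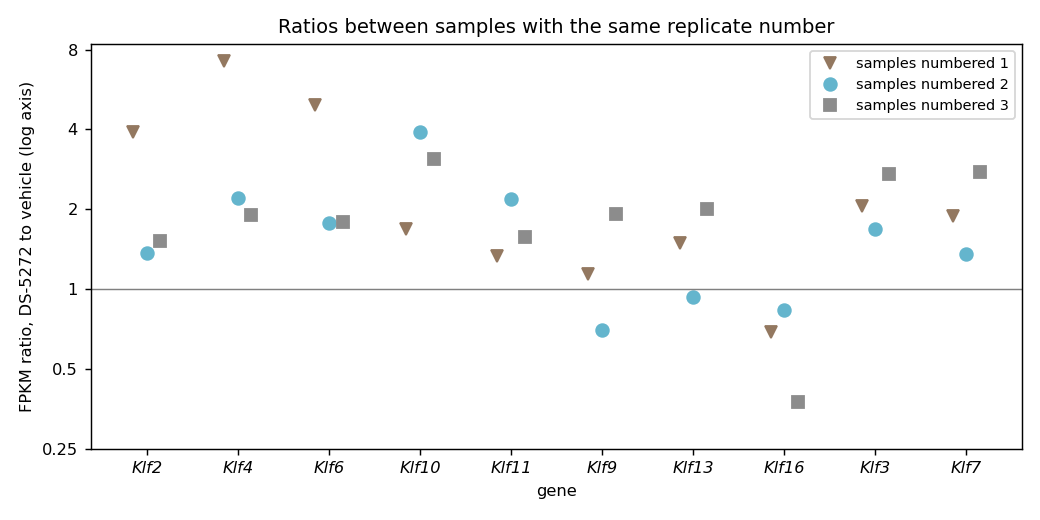
Ratio of DS-5272 over vehicle FPKM for each KLF gene between samples of the same number, on a log axis, with 1 point per number. For Klf2, Klf4 and Klf6 the ratio is largest for number 1 (3.92, 7.25 and 4.95), and for Klf16 all 3 ratios are below 1.

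Within each group, replicate 1 was the lowest sample for Klf2, Klf4, Klf6 and Klf11, with vehicle and with DS-5272 alike. This held for 4 of the 10 genes and 29.2% of all genes tested, and 0 of the 10 were highest in replicate 1 of both groups, beside 20.1% of all genes. The size set 3 of them apart. The mean of replicates 2 and 3 was 35.4 times replicate 1 in vehicle and 13.1 times in DS-5272 for Klf2, 46.6 and 13.1 times for Klf4, and 24.1 and 8.68 times for Klf6. A difference of at least 2 on the log2(FPKM + 1) scale in both groups was found for these 3 of the 10 genes and for 0.359% of all genes (40 genes). Ranked by the smaller of the differences in vehicle and DS-5272, Klf2 was the 2nd, Klf4 the 7th and Klf6 the 11th of all genes, in the company of Jun (1st), Dusp1, Fosb, Atf3 and Fos. The 40 genes also held inflammatory genes such as Cxcl2 (the 3rd), Tnf and Il1b, and genes of neutrophil granules and maturing neutrophils. Ngp was 16.5 and 6.36 times as high in replicates 2 and 3 as in replicate 1 (vehicle and DS-5272), Camp 16.8 and 4.55 times, S100a9 11.6 and 4.62 times, Stfa2l1 14.1 and 7.71 times and Olfm4 11.0 and 4.64 times. The part of these other genes, and of the cells that express them, in the differences of Klf2, Klf4 and Klf6 was not tested. For Klf11 the ratios were 2.35 and 3.18. Klf10 was 1.28 and 2.59 times as high, whereas Klf3 (1.04 and 1.11), Klf7 (0.98 and 1.05), Klf9 (0.93 and 0.99), Klf13 (0.92 and 0.89) and Klf16 (1.04 and 0.86) differed little. With 1 sample against 2 inside a group there was no test of these ratios.

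**Figure D4:**
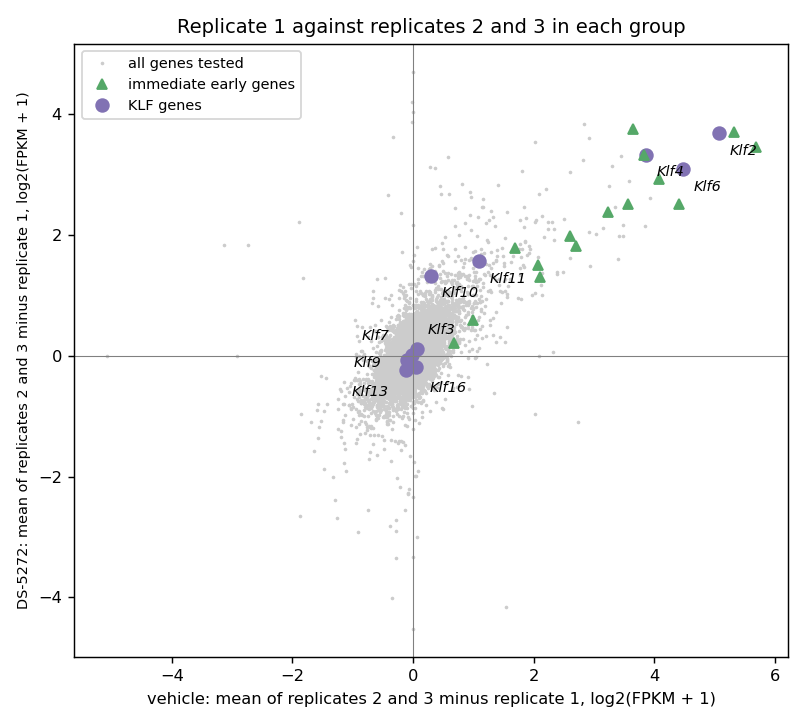
Difference between the mean of replicates 2 and 3 and replicate 1 on the log2(FPKM + 1) scale, vehicle on the horizontal and DS-5272 on the vertical axis, for all genes tested (grey), the KLF genes and the immediate early genes. Klf2, Klf4 and Klf6 lie among the immediate early genes, at 3.68, 3.33 and 3.09 on the vertical axis, and Klf3, Klf7, Klf9, Klf13 and Klf16 lie near 0.

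The immediate early genes, which cells switch on within minutes of a stimulus, moved with this difference. Of 16 in the list 15 were tested, and all 15 were lower in replicate 1 of both groups. Their median difference between replicates 2 and 3 and replicate 1 was 3.24 in vehicle and 2.38 in DS-5272 (log2). Fos was at 26.3, 456 and 465 FPKM in vehicle and at 138, 909 and 1233 FPKM in DS-5272, and Jun at 14.8, 613 and 651 FPKM and at 60.4, 704 and 906 FPKM. The log2 fold change of Fos was 1.58 (adjusted p = 0.343 without and 0.0045 with the block, limma), that of Jun 0.88 (0.685 and 0.067) and that of Egr1 1.70 (0.315 and 0.013). The 3 of 15 genes that passed the test were Egr2, Egr3 and Nr4a1 (2.03 ± 0.64, SE, adjusted p = 0.039, limma), a share near the 24.2% of all genes called higher, and 13 of 15 passed with the replicate block, beside 30.3% of all genes. Egr3 was at 0.194, 0.847 and 0.987 FPKM in vehicle and at 3.01, 4.04 and 3.31 FPKM in DS-5272, and passed the filter on low values only through the DS-5272 group. Why the samples numbered 1 were low in these genes was not tested.

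The gene whose profile over the 6 samples was nearest to each KLF gene was found by the root mean square distance of the centred log2(FPKM + 1) values, among genes averaging 5 FPKM or more. Jun was nearest to Klf2 (distance 0.105, where the values of Klf2 themselves had a root mean square deviation of 2.15), Fos to Klf6 (0.219 against 1.93) and Klf6 to Klf4 (0.238 against 1.8). For Klf3 it was Naip5, a sensor of bacterial proteins (0.038 against 0.55), which was at 13.3, 15.1 and 14.1 FPKM in vehicle and 29.2, 24.5 and 36.4 FPKM in DS-5272. Hsp90aa1, a heat shock protein, was nearest to Klf16 (0.060 against 0.35) and was at 359, 355 and 389 FPKM in vehicle and at 268, 295 and 199.6 FPKM in DS-5272. For Klf7, Klf9, Klf10, Klf11 and Klf13 the nearest genes were Trim12a, E230008O15Rik, Mob3b, Zfp295 and Gab2. A small distance describes these 6 samples only.

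Of the 16 other KLF and SP factors, 5 had a mean of at least 1 FPKM and none of them passed the test. At an unadjusted p under 0.05 the count was 0, and with the replicate block 0 passed (limma). Klf5, an activator of proliferating epithelia, was at 3.79, 6.86 and 8.95 FPKM in vehicle and at 3.13, 5.66 and 7.86 FPKM in DS-5272 (log2 fold change -0.21 ± 0.36, SE). Sp1, Sp2, Sp3 and Sp4, which bind the same GC boxes, had means of 24.4, 21.4, 39.1 and 4.04 FPKM in vehicle and 24.2, 20.2, 43.5 and 4.01 FPKM in DS-5272, with log2 fold changes of -0.03, -0.08, 0.14 and -0.01. That of Sp3 turned to -0.13 with values rescaled to a common total and to -0.013 after quantile normalization. Klf14 and Sp5 were listed at 0 in all samples, and Klf1, Klf8, Klf12, Klf15, Klf17, Sp6, Sp7, Sp8 and Sp9 had means under 1 FPKM.

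Among 9 cofactors of KLF proteins 2 rose and 3 fell, numbers near the 24.2% and 22% of all genes that did so. With the block Crebbp was also called higher (adjusted p = 0.036, limma), which made 3 of 9, beside 30.3% of all genes. The acetyltransferases Ep300 (0.49 ± 0.15, adjusted p = 0.033) and Kat2b (0.62 ± 0.17, adjusted p = 0.023) rose on the log2 scale, and Sin3a (-0.36 ± 0.10, adjusted p = 0.022), Hdac1 (-0.33 ± 0.10, adjusted p = 0.037) and Hdac2 (-0.72 ± 0.11, adjusted p = 0.0041), members of the SIN3 corepressor complex, fell (SE, limma). Sin3a was at 29.9, 29.7 and 28.7 FPKM in vehicle and at 20.6, 24.3 and 23.2 FPKM in DS-5272. Of 5 ubiquitin ligases that act on KLF proteins 1 rose, Smurf1 (0.47 ± 0.15, SE, adjusted p = 0.040, limma), and none fell, beside 24.2% and 22% of all genes. With the block Fbxw7 was also called higher (adjusted p = 0.047, limma), which made 2 of 5, beside 30.3% of all genes.

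The pathways upstream of KLF genes were described by lists. In the MEK5-ERK5-MEF2 pathway, which induces Klf2 and Klf4 in endothelium, 5 of 7 genes passed the test upward and none downward, beside 24.2% and 22% of all genes, and their median log2 fold change was 0.49 (0.04 over all genes). With the block Map3k3 was also called (adjusted p = 0.020, limma), beside 30.3% of all genes. Mef2c was at 0.295, 0.115 and 0.0984 FPKM in vehicle and at 1.76, 2.45 and 1.54 FPKM in DS-5272. It passed the filter on low values only through the DS-5272 group, so its place among the 5 is no support for a rise of the pathway. Mef2a, which was expressed at about 18.3 FPKM in vehicle, rose to 40.4 FPKM (1.06 ± 0.20, SE, adjusted p = 0.0077, limma). In the TGF-beta pathway, which induces Klf10 and Klf11, 6 of 9 genes rose and none fell, beside 24.2% and 22% of all genes, and the median was 1.10. The 6 were Tgfbr1, Tgfbr2, Smad3, Smad7, Skil and Tgif1, and Smad2, Smad4 and Tgfb1 did not pass. This count of RNAs does not measure the activity of the pathway. With the block Tgfb1 was also called (adjusted p = 0.044, limma). The receptor gene Tgfbr2 was at 5.50, 8.09 and 7.43 FPKM in vehicle and at 28.9, 28.2 and 40.4 FPKM in DS-5272 (2.06 ± 0.19, SE, adjusted p = 0.0012, limma). The corepressor Tgif1 (1.35 ± 0.34, SE, adjusted p = 0.018, limma) also rose.

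FOXO factors activate Klf2 in lymphocytes, and KLF2 in turn has known target genes there. Foxo3 rose from a mean of 13.3 to 34.6 FPKM (1.24 ± 0.26, SE, adjusted p = 0.010, limma). Itgb7, an integrin subunit for homing to the gut, was at 2.90, 2.33 and 2.33 FPKM in vehicle and at 8.25, 17.6 and 19.7 FPKM in DS-5272 (2.12 ± 0.30, SE, adjusted p = 0.0037, limma). Foxo3 and Itgb7 are named as the largest called rises of their list and do not stand for its other genes, not all of which passed. S1pr1, the best known target in T cells, was below the filter, at most 0.288 FPKM in any sample. Of the glucocorticoid-responsive genes, the group to which Klf9 belongs, 5 of 6 were tested. Of these 1 rose and 1 fell, beside 24.2% and 22% of all genes. The receptor gene Nr3c1 rose (0.50 ± 0.16, SE, adjusted p = 0.039) and Fkbp5 fell (-1.15 ± 0.18, SE, adjusted p = 0.0049, limma), from 53.9, 51.1 and 51.1 FPKM to 29.7, 17.4 and 22.9 FPKM. Per1, Sgk1 and Tsc22d3 did not pass and were lowest in replicate 1 of each group. With the block Sgk1 was also called higher (1.23, adjusted p = 0.0012, limma).

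Genes of monocyte differentiation, the process for which KLF4 is known, passed the test upward in 8 of 9 cases, beside 24.2% of all genes, and their median log2 fold change was 2.1. Ly6c2 did not pass, with means of 880 FPKM in vehicle and 693 FPKM in DS-5272 (-0.39, adjusted p = 0.186, limma). Cx3cr1 was under the filter, with a mean of 0.16 FPKM in each group. The 8 include Fcgr1, which passed the filter on low values only through the DS-5272 group. Lyz2 was at 889, 989 and 1127 FPKM in vehicle and at 6108, 6870 and 8815 FPKM in DS-5272 (2.85 ± 0.20, SE, adjusted p = 0.00068, limma), and Fcgr1 at no more than 1.08 FPKM in vehicle and at 20.7, 11.9 and 14.4 FPKM in DS-5272. The sum of the macrophage markers given above was also higher in the DS-5272 samples. Of these markers C1qa, C1qb and C1qc passed the test upward, and Vcam1, Slc40a1, Cd5l and Mrc1 did not (limma). With the block Cd5l was also called higher (adjusted p = 0.039, limma). Of 12 tested target genes of p53, 3 rose, Fas, Sesn2 (1.91 ± 0.33, SE, adjusted p = 0.0059, limma) and Trp53inp1 (1.85 ± 0.54, SE, adjusted p = 0.029, limma), and 9 rose with the replicate block. These counts stand beside 24.2% and 30.3% of all genes, and the first is near its background. All 12 estimates were above 0 (52.8% of all genes), with a median of 1.38. For 9 of the 12 the groups did not overlap, with DS-5272 higher, beside 32.1% of all genes. The median difference of the 12 between replicates 2 and 3 and replicate 1 was -0.07 in vehicle and 1.01 in DS-5272 (log2). Cdkn1a was at 14.8, 28.1 and 25.5 FPKM in vehicle and at 32.3, 117 and 485 FPKM in DS-5272, in the order of the replicates.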

How the data were processed

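RNA-Seq was done by the authors on strand-specific libraries of total RNA from 3 vehicle and 3 DS-5272 samples. Per the labels and the submitters' processing notes, reads were trimmed with cutadapt 1.8.1 and aligned to GRCm38 with TopHat2 2.1.1, and the authors deposited FPKM values per gene from Cufflinks 2.2.1. Transcript length and library size are divided out in these values and no counts are given, so no count model was used. The summed FPKM still differed, at 445316, 492100 and 501241 in vehicle and 499229, 579884 and 661184 in DS-5272, by number. The main fit did not rescale them.

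The table had 26632 lines and 26082 names. Lines that shared a name (435 names) were summed, and 433 lines that join several genes were kept as they stand. Of 163 genes in the lists, 155 had an entry of their own. Groups were compared with limma 3.58.1 (R 4.3.3; lmFit, then eBayes with trend; two-sided). Input was log2(FPKM + 1) of the 11130 genes averaging 1 FPKM or more, and p-values had Benjamini-Hochberg adjustment over all of them with a threshold of 0.05. Fold changes on this scale understate the change of low genes. With 3 samples against 3, an exact permutation test of 1 gene cannot go below p = 0.1, so none was used. The limma code was tested on simulated data.

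Samples of the same number deviated together (correlations of their deviations from the group means of 0.66, 0.21 and 0.43, all above 0.1), so the numbers were treated as pairs, a reading from the data and not from the labels. Vehicle 2 with DS-5272 3 gave 0.34 and vehicle 3 with DS-5272 2 gave 0.18, so that number 1 is set apart but numbers 2 and 3 are not separated from each other. Results of a fit blocked by number are given beside a result whose call they change. The KLF genes, the gene lists and the tests were chosen with earlier results of these data known. Named genes are the KLF genes, the other KLF and SP factors over the filter, the called genes with the largest rise and fall in each list (up to 2 each way), the nearest profiles, and genes on which a statement rests. Egr2, Hdac1, Fas, Crebbp, Fbxw7, Map3k3, Tgfb1 and the inflammatory and neutrophil genes were named after their values were seen. The same holds for Sgk1, Per1, Tsc22d3, Tgfbr1, Smad2, Smad3, Smad4, Smad7, Skil, Ly6c2, Cx3cr1, Cdkn1a and the single markers of cell types. A list of FOXO factors and KLF2 targets is given by single genes only, since an item in it is not reported here. Mapped fragments were estimated from the steps between the lowest FPKM values, and cover counting only roughly. Gene positions and exon overlap are from GENCODE M21 (GRCm38) and promoters from RefSeq (GRCm38.p6). Tables and figures were made in Python 3.11.15 (numpy 2.4.6; pandas 2.3.3; matplotlib 3.10.9).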

Additional observations from a re-analysis of the deposited data

How the results depend on the processing

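Of 168 values of single KLF genes under alternatives, 142 kept their direction and their side of the threshold, 13 were no longer called, 8 became called and 5 changed sign. With the replicate block 7 KLF genes were called higher, among them Klf2 (0.99), Klf4 (1.17), Klf6 (1.29) and Klf11 (0.69), and the block changed no other KLF call. With both samples numbered 1 left out, an alternative chosen after seeing the data, 5 were called higher, Klf2 (0.53), Klf4 (1.0) and Klf6 (0.83) newly so, and Klf7 (0.84) and Klf16 (-0.65) were lost. With no filter on low values Klf10 (1.40) and Klf16 (-0.58) were lost. The count of KLF genes called lower was 0 with no filter, with a mean of at least 5 FPKM (Klf16 was then not tested), with both samples numbered 1 left out and with a log2 fold change of at least 1 required. Rescaling to a common total moved the median log2 fold change of all genes from 0.04 to -0.21 and turned Klf9 (-0.050) and Sp3 (-0.13), and quantile normalization turned Sp3 (-0.013).

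Leaving out 1 sample at a time gave ranges of -0.70 to 2.22 for Klf2, -0.11 to 2.28 for Klf4, -0.20 to 2.32 for Klf6, 0.64 to 1.01 for Klf7, -0.010 to 0.37 for Klf9, 1.09 to 1.84 for Klf10, 0.33 to 1.21 for Klf11, 0.28 to 0.76 for Klf13 -0.69 to -0.41 for Klf16, -0.90 to 2.11 for Jun, -0.50 to 0.092 for Klf5, -0.17 to 0.12 for Sp1, -0.0011 to 0.23 for Sp3 and -0.056 to 0.022 for Sp4, with 2 to 3 KLF genes called higher and 0 to 1 lower. The sign of Klf2, Klf4, Klf6 and Jun turned without vehicle replicate 1, and that of Klf9 without DS-5272 replicate 3. Among other factors with estimates near 0 the sign turned for Klf5 without vehicle replicate 3 (0.026) or DS-5272 replicate 1 (0.092), Sp1 without DS-5272 replicate 1 (0.12), Sp3 without DS-5272 replicate 3 (-0.0011) and Sp4 without vehicle replicate 1 (0.013) or 2 (0.0031) or DS-5272 replicate 1 (0.0048) or 2 (0.022). Without both samples numbered 1 it turned for Sp1 (0.13), Sp2 (0.0057) and Sp4 (0.027). Over all genes, 1623 to 2934 were called higher and 1389 to 2432 lower without 1 sample, with 1623 and 1389 without vehicle replicate 2 and 1492 lower without vehicle replicate 3. A common total gave 1717 higher, and a log2 fold change of at least 1 gave 978 higher and 621 lower. The causes were not tested. Where a sample is left out, its group is assumed to vary like the other. With 3 samples a group the intervals of Klf2, Klf4 and Klf6 without the block allow changes in either direction. Those with the block lie above 0, under a pairing read from the data and not from the labels. The count behind the lowest value, Klf4 in vehicle replicate 1, is small.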
